A study of Glycine max with 4 samples.

Results

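Sharp promoters used in both roots and shoots of soybean are described here as 1015 narrow clusters of transcription start positions. A member is a cluster of the authors' root list with at least 2 start positions, a width of at most 10 bp and a score of at least 5 TPM, which overlaps on the same sequence and strand a shoot cluster that meets the same limits. The score is the level of the cluster in the authors' deposited lists, with replicates pooled, in TPM (tags scaled to a common total). The 1015 members are drawn from 23330 start regions, formed by joining root and shoot clusters within 100 bp of each other on 1 strand. Members were thus chosen by measured values, namely the width, the number of positions and the pooled level in both tissues, so the narrowness of the members and their presence in both tissues are a choice and not a result.

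The samples were 2 root and 2 shoot libraries of Williams 82 (Glycine max), from plants 2 weeks old grown under white light (300 µmol, 12 h of light per day). The libraries, from 1 µg of total RNA apiece, were made by nanoCAGE, which reads capped RNA from its 5′ end, so that a tag marks the base where a transcript starts. The 2 tissues share genotype, age and light, and the labels do not say that the libraries numbered 1 and 2 came from separate plants, so the p-values rest on the spread among these 4 libraries alone, and that spread may be technical. In whole-organ RNA, fewer cells that use a promoter and less RNA per cell cannot be told apart.

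A promoter is the stretch of DNA on which RNA polymerase II and its general factors assemble, and it can fire from 1 base or from many. In plants and animals, focused promoters often carry a TATA box at a fixed distance upstream of the start, while dispersed ones often lack it. The base at the start itself tends to be a purine preceded by a pyrimidine, the initiator. Soybean carries many duplicated genes, and how tags that match more than 1 copy were placed is not stated in the sources used here, so the level of any single member is uncertain to that extent. Positions below are named by sequence, strand, start and end as in the deposited files, and no gene name or base sequence is attached to them because no sequence of the assembly they refer to was used here.

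The per-library count table held 655935 to 1000476 tags per library and covered 670 of the 1015 members. The other 345 members were measured only in the pooled TPM of each tissue. Members held 4.87% and 4.81% of the tags of root libraries 1 and 2, and 3.55% and 3.50% of those of shoot libraries 1 and 2. The median member had 34 and 29 tags in the root libraries and 24 and 17 in the shoot libraries, with a range of 0 to 2343 over all 4. Most members thus had few tags in a library, and their position shares rest on small numbers of tags.

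Sharp clusters of one tissue that were not members mostly lacked a cluster of 5 TPM in the other tissue. Of 2169 root clusters that met the limits, 1015 (46.8%) overlapped a sharp shoot cluster. A further 720 (33.2%) overlapped a shoot cluster below 5 TPM, 354 (16.3%) overlapped no shoot cluster, 63 (2.90%) overlapped a shoot cluster wider than 10 bp and 17 (0.784%) a single position. Seen from the 1721 sharp shoot clusters, 1015 (58.98%) were sharp in root, 304 (17.7%) were below 5 TPM in root, 248 (14.4%) had no root cluster, 150 (8.72%) were wider than 10 bp and 4 (0.232%) were a single position. Where a sharp cluster of one tissue was missing among the sharp ones of the other, the level in the other tissue was thus more often under the limit than the width was over it.

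The members lay on all 20 sequences and evenly on both strands, with 509 on the plus and 506 on the minus strand. They numbered from 32 on sequence 16 to 73 on sequence 6, which is 3.04% to 5.38% of the start regions of a sequence (lowest on sequence 7 and highest on sequence 17). The median width was 6 bp and the median number of positions 3 in both lists. In 889 members the first and last position were the same in root and shoot. This identity is in part built in: all first and last positions of listed clusters had at least 1 TPM in one tissue or the other, while 88.5% of those in the root list and 77.4% to 77.5% of those in the shoot list had it in their own tissue. At the limits, the member with the lowest score, on sequence 17 minus strand at 2488362 to 2488370, had 5.16 TPM in root, and the nearest pair left out, on sequence 13 plus strand at 14588050 to 14588055, had 35.3 TPM in root and 4.89 TPM in shoot. There were 66 members whose wider cluster measured 10 bp and likewise 66 excluded pairs at 11 bp.

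Single bases carried most of the tags. The main position of a member, the base with the most tags, held a median of 70.0% of its root tags and 71.4% of its shoot tags. Per library, and measured at 1 main position fixed for all 4 libraries from the mean of the root and shoot shares, the medians were 70.0% and 70.8% in root and 72.7% and 71.9% in shoot, among members with at least 10 tags in that library. Counting every tag within 100 bp on the same strand lowered the tissue medians to 63.0% in root and 63.6% in shoot. A median of 6.50% to 6.74% of the tags in the member and the 100 bp on each side of it lay outside the member, depending on the library. In regions wider than 10 bp and of at least 5 TPM in both lists, which numbered 4720 with 3209 in the count table, the main position held a median of 36.96% to 38.5% per library. The width limit fixes part of that contrast, and it was not tested.

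Members differed in how far 1 base dominated. In the deposited lists the main position held 90% or more of the level in both tissues in 62 members, over 50% in both in 801 and 50% or less in both in 97. The median share at the main position in root was lower in wider members. It was 82.02% in 347 members of 2 to 4 bp and 67.97% in 436 members of 5 to 7 bp. In 232 members of 8 to 10 bp it was 61.2%. Width bounds the number of bases that can share the tags, and its part in this fall was not tested.

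The member with the highest mean level in the count table was almost a single base. On sequence 12 minus strand at 3132389 to 3132392, position 3132391 held 1287 of 1297 tags in root library 1, 894 of 904 in root library 2, 951 of 957 in shoot library 1 and 780 of 785 in shoot library 2. Its share was 99.1% in root and 99.4% in shoot. The other 3 bases of the member never exceeded 7 tags in a library. No library stood apart in this profile.

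The next highest in the count table had 2 adjacent bases in use. On sequence 11 minus strand at 15175021 to 15175027, position 15175023 held 756, 774, 579 and 545 tags in root libraries 1 and 2 and shoot libraries 1 and 2, and the base 1 bp upstream of it held 198, 183, 175 and 156. The main base made up 75.8% of the root and 73.2% of the shoot tags, and the base before it 18.9% and 21.6%. The same 2 bases led in the same order in all 4 libraries.

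Other members were spread over several bases. Of those with no position over 50% in either tissue, the one with the most tags in its weaker tissue (chosen after its values were seen) lay on sequence 3 plus strand at 43180379 to 43180385. Its main base held 35.9% of the root and 40.8% of the shoot tags, the base 1 bp upstream 24.2% and 22.2%, and the base 3 bp upstream 25.4% and 23.5%. On sequence 10 minus strand at 928113 to 928119, chosen in the same way, 2 bases 6 bp apart held 47.1% and 39.9% of the root tags and 47.2% and 36.9% of the shoot tags. The second by tags in its weaker tissue, on sequence 2 minus strand at 45429892 to 45429898, moved more, with 49.1% of root and 38.7% of shoot tags on its main base and 18.0% and 25.1% on a base 5 bp downstream. The last of this kind listed, on sequence 8 plus strand at 2607106 to 2607112, had 44.9% and 38.98% on its main base and 32.5% and 37.9% on the base 3 bp upstream. None of the 4 was called for position use.

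**Figure D1:**
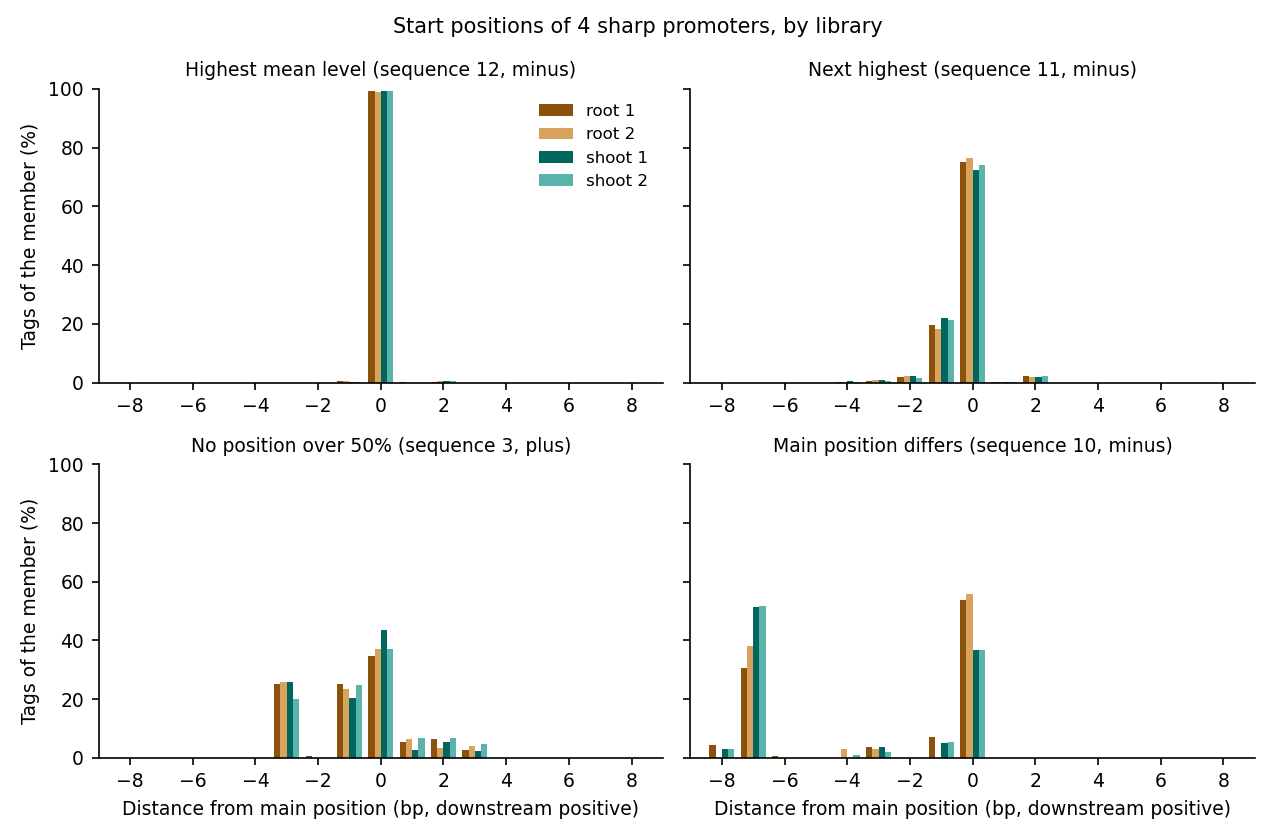
Share of a member's tags (%) by distance from its main position (bp, downstream positive) in each of the 4 libraries, for 4 members of the count table: the 2 with the highest mean level, the best covered with no position over 50%, and one whose main position differs between tissues. The first puts 99.1% of root and 99.4% of shoot tags on 1 base, and in the last the shoot libraries favour a base 7 bp upstream of the one the root libraries favour.

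The base just upstream of the main one was used far more than the base just downstream. In pooled TPM the second most used position lay 1 bp upstream of the main position in 255 of the 1015 members (25.1%) and 1 bp downstream in 31 (3.05%). This asymmetry was present on both strands, with 139 against 18 of 509 members on the plus strand and 116 against 13 of 506 on the minus strand. A second position 2 bp downstream was the next most frequent, in 133 members (13.1%), followed by 3 bp downstream in 97 (9.56%).

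The same asymmetry was present in each library. Of 444 members with at least 10 tags in all 4 libraries, the upstream neighbour had more tags than the downstream one in 258 and 257 in root and in 258 and 236 in shoot, and fewer in 54, 48, 40 and 41. In 168 members it had more in all 4 libraries and in 15 it had fewer in all 4. Averaged over these members with equal weight, the main position held 63.4% to 65.3% of the tags within 100 bp, the base before it 5.55% to 5.69% and the base after it 1.35% to 1.52%. Regions wider than 10 bp had the same order at a lower level: over 2824 of them, 2.78% to 2.85% of tags lay 1 bp upstream and 0.89% to 1.02% lay 1 bp downstream of the main position. In a CAGE library a base added to the cDNA end during reverse transcription, when it happens to match the genome, can move a tag by 1 bp upstream. The part of such added bases in these tags was not tested.

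**Figure D2:**
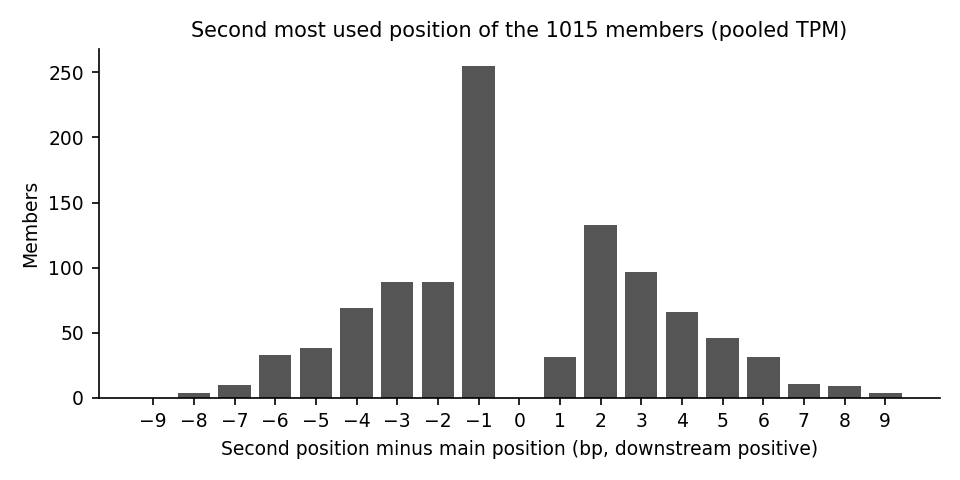
Number of members (of 1015) by the distance in bp from the main to the second most used position, in pooled TPM, with downstream distances positive. The bar at 1 bp upstream (255 members) is the tallest, and the bar at 1 bp downstream holds 31.

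The first question between the tissues was whether a sharp promoter fires from the same base in root and in shoot. In pooled TPM the main position was the same base in 907 of 1015 members (89.4%, 95% Wilson interval 87.3 to 91.1). In the count table it was the same in 591 of 670 (88.2%, 85.5 to 90.4). Where it differed, shoot lay downstream of root in 61 members and upstream in 47, by a median of 3 bp and at most 8 bp. These intervals take each member as 1 independent draw, and they cover neither the counting of tags nor PCR copies.

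Agreement between libraries was also counted pair by pair. With libraries thinned to 655935 tags each, 382 members had at least 10 tags in every library. Among them the main base was the same in the 2 root libraries in 89.0% (85.5 to 91.8) and in the 2 shoot libraries in 89.8% (86.3 to 92.4). The 4 root-shoot pairs agreed in 87.4% to 89.0%. In the 2636 wider regions treated alike, replicates agreed in 75.4% and 75.04%, and root-shoot pairs in 68.9% to 70.4%. The same regions enter all pairs and pairs share libraries, so the intervals do not test tissues against replicates. The 2 groups of regions were not compared by a test either, since the width limit restricts how many bases can compete in a member.

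**Figure D3:**
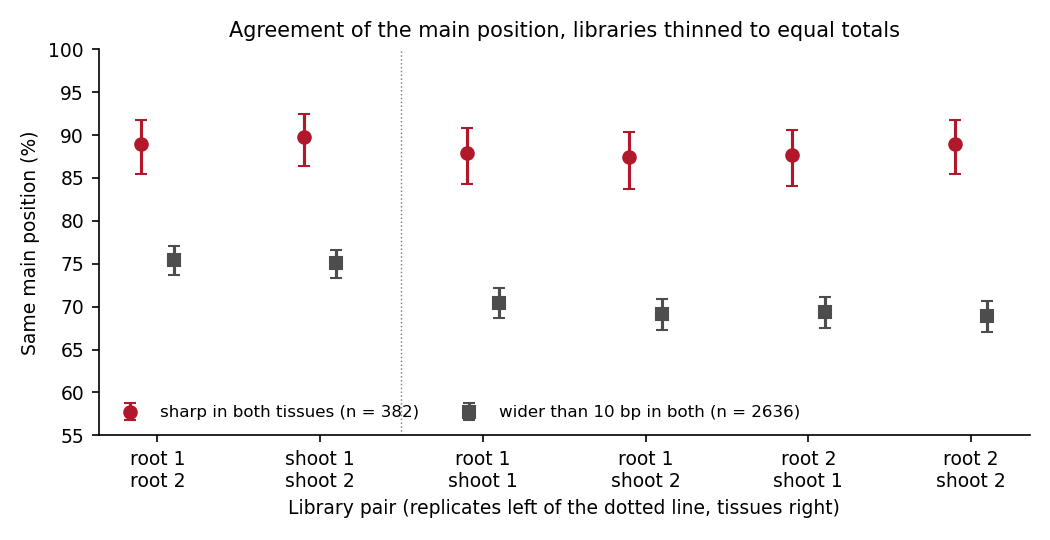
Percentage of regions with the same main position for each pair of libraries, thinned to equal totals, with 95% Wilson intervals, for 382 sharp members and 2636 wider regions. The y axis starts at 55%. Sharp members lie between 87.4% and 89.8% in all 6 pairs, and wider regions at 75.04% to 75.4% in replicate pairs and 68.9% to 70.4% in root-shoot pairs.

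Agreement followed how dominant the main base was. It reached 397 of 399 members (99.5%) where the main base held over 60% in both tissues, and 194 of 271 (71.6%) where it held 60% or less in either. Dominance and agreement were read from the same tags. Members with at least 50 tags in the tissue with fewer tags agreed in 94.4% of 232, and those with 10 to 49 tags in 84.9% of 438. Shares behaved alike. The share at the main position differed by a median of 6.78 percentage points between the root libraries, 6.38 between the shoot libraries and 7.14 to 7.22 between root and shoot libraries, over 444 members.

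No member passed a test for a different use of its positions in root and shoot. EdgeR's diffSpliceDGE (Simes test per region, Benjamini-Hochberg adjustment at 0.05) called 24 of 3308 regions (0.726%) and 0 of the 354 members that could be tested, of which 4 had an unadjusted p below 0.05 (214 of all 3308). The region-level F test of the same tool called 66 of 3308 regions (2.0%) and 0 members, with 15 members and 433 regions at an unadjusted p below 0.05. The remaining 316 covered members had fewer than 2 positions with at least 20 tags and 5% of the region's tags. Counts were also simulated for the Simes test, with 1 spread between libraries set for all positions and 3084 regions entering it. With 100 regions changed at each size, it recovered 69.0% of 8-fold and 28.0% of 4-fold changes of 1 position. These shares hold for that spread only. Smaller changes were not simulated.

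The lowest p among members was at a member with the same main base in both tissues. On sequence 2 minus strand at 54401201 to 54401210 the main base held 90 of 164 and 100 of 148 tags in the root libraries and 138 of 190 and 80 of 104 in the shoot libraries (60.9% of root and 74.1% of shoot tags). The base 3 bp upstream of it held 19 and 9 tags in root and 3 and 4 in shoot, or 8.97% against 2.38%. The p of diffSpliceDGE is for the member as a whole and not for 1 base. It was 0.0101 unadjusted and 0.328 adjusted. On sequence 8 minus strand at 35697856 to 35697863, the base 3 bp upstream of the main one held 22 and 18 tags in root and 5 and 4 in shoot, or 31.5% against 8.11%, with an adjusted p of 0.337. Both were chosen after their values were seen, and neither is a call.

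In 8 members the main base was the same in the 2 libraries of each tissue and different between the tissues. This is 2.21% of the 362 members whose libraries had the same main base within each tissue. These 362 were among 444 members with at least 10 tags in all 4 libraries. Held to the same conditions, start regions with at least 2 positions had a share of 8.4% (190 of 2262). The width limit restricts which bases can lead in a member, so nothing is read from the lower share. None of the 8 passed the test of position use. The best covered was on sequence 10 minus strand at 38693564 to 38693572, where 2 bases 7 bp apart competed. Position 38693564 held 76, 19, 50 and 35 tags in root libraries 1 and 2 and shoot libraries 1 and 2, and position 38693571, upstream of it, held 43, 13, 70 and 49. The upstream base thus made up 32.0% of the root and 51.5% of the shoot tags, and the adjusted p was 1.00 by diffSpliceDGE.

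The remaining 7 had fewer tags in their weaker tissue. On sequence 8 minus strand at 48873003 to 48873007 the downstream of 2 bases held 41.9% of 43 root tags and 72.1% of 86 shoot tags. On sequence 10 minus strand at 2771164 to 2771166, the downstream base held 35.8% of 53 root tags and 63.9% of 183 shoot tags. The other 5 lay on sequence 2 plus strand at 32232009 to 32232011, sequence 4 minus strand at 38307557 to 38307563, sequence 10 plus strand at 52174840 to 52174844, sequence 10 minus strand at 37324073 to 37324080 and sequence 11 minus strand at 3585175 to 3585180. These members shared a mixed profile, in which the leading base of neither tissue reached 75% of its tags.

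In the other members taken by differing pooled main bases and many tags in both tissues, the leading base held at most 51.96% of a tissue's pooled tags. Some leads were narrow and others were not. On sequence 6 minus strand at 13898982 to 13898987, the 2 leading bases held 51.96% and 34.3% of the shoot tags. On sequence 2 plus strand at 3357341 to 3357350, position 3357342 held 89 and 44 tags in root and 30 and 32 in shoot, and position 3357350 held 69 and 28 in root and 30 and 39 in shoot. In shoot library 1 the 2 bases were equal. On sequence 6 plus strand at 12427206 to 12427214, the leading shares were 34.8% in root and 40.2% in shoot, at bases 7 bp apart. The same rule took members on sequence 3 plus strand at 46850366 to 46850373, sequence 6 minus strand at 13898982 to 13898987 and sequence 13 plus strand at 35812546 to 35812552, whose leading bases held 27.3% to 51.96% of the tags of a tissue.

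The second question was how strongly each tissue used these promoters. Of 670 covered members, 664 passed the count filter of edgeR, and the 6 that did not had 6 to 34 tags in each library. The quasi-likelihood test of edgeR (Benjamini-Hochberg adjustment over all regions, at 0.05) called 227 members (34.2%), of which 127 were higher in shoot and 100 in root. Over all 7183 regions tested, 52.9% were called, 29.5% higher in shoot and 23.4% higher in root. The demand for 5 TPM in both tissues removes large differences, so nothing is read from the lower share of members. Scaled to library totals instead of by the trimmed mean of M values, 161 members were higher in root and 84 in shoot (32.4% and 24.8% of all regions, 57.2% in either direction), and the median log2 difference of all regions (shoot minus root) moved from 0.06 to -0.32. DESeq2 called 149 members, 78 higher in shoot and 71 in root, and 41.0% of all regions, 23.9% in shoot and 17.2% in root.

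The size of the differences between tissues is limited by the demand for 5 TPM in both, and it is given beside that of the wider regions. The median absolute log2 difference was 0.68 in members, 0.62 in the 3209 wider regions held to the same level in both tissues and 1.13 in all regions. In those wider regions 35.4% were called. Members over 2-fold apart numbered 234 (35.2%), those over 4-fold 65 (9.79%) and those over 8-fold 21 (3.16%), against 30.5%, 11.1% and 5.11% of the wider regions. The median of the mean level was 39.4 CPM in members, 76.4 CPM in the wider regions and 37.6 CPM in all 7183 regions tested. CPM here are tags scaled to a common library total after trimmed-mean factors.

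Members with a dominant base were called more often than members with a mixed profile, beside a higher level. The call was made in 90 of 202 (44.6%) members whose main base held 80% or more, averaged over the 2 tissues, in 118 of 372 (31.7%) at 50 to 80% and in 19 of 90 (21.1%) below 50%. Their median levels were 50.8, 36.997 and 32.8 CPM, and the part of level in the calls was not tested. By width the shares called were 32.6%, 34.7% and 35.6% in members of 2 to 4, 5 to 7 and 8 to 10 bp in root. Beside these, 52.9% of all regions tested and 35.4% of the wider regions were called. Regions outside the members were not split by main base or width, so the order is not shown to be particular to members. The splits of members were chosen after the data were seen, and no difference between the groups was tested.

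**Figure D4:**
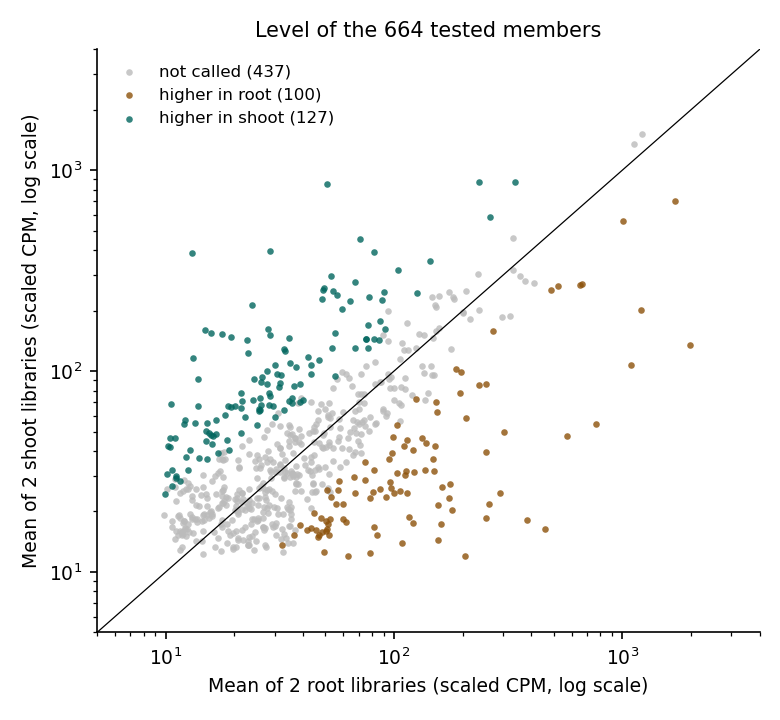
Mean level of the 664 tested members in the 2 root libraries against the 2 shoot libraries (scaled CPM, both axes log scale), with the line of equal level. Called members are marked by direction, 100 higher in root and 127 higher in shoot, and the 2 members with the highest shoot levels lie near the line at the upper right.

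The 2 members with the most even use among the strongest of the count table are given first. The sequence 12 member at 3132389 had 1365 and 1074 CPM in root and 1395 and 1641 CPM in shoot, and the sequence 11 member at 15175021 had 1060 and 1201 CPM in root and 1166 and 1537 CPM in shoot. In this scaling shoot lay slightly above root at the first, and the libraries overlapped at the second. Their log2 differences (shoot minus root) were 0.32 ± 0.28 (SE) and 0.26 ± 0.28, with adjusted p of 0.368 and 0.462 by edgeR. With library totals both turned in sign, to -0.07 and -0.13, so no direction is read from them.

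Of the 10 members with the highest mean level, the other 8 were called, 6 higher in root and 2 in shoot. At 14963515 to 14963520 on sequence 2 (minus strand), root had 1748 and 1664 CPM and shoot 743 and 657 CPM, a ratio of 2.44 with an adjusted p of 0.0021. At 14319663 to 14319669 on the same strand of sequence 8, root had 797 and 538 CPM and shoot 240 and 301 CPM, a ratio of 2.46. At both members all root libraries were above all shoot libraries. A ratio of 1.82 was found on sequence 10 minus strand at 46672276 to 46672285, with root at 1061 and 963 CPM and shoot at 716 and 395 CPM. This call (adjusted p 0.0395 by edgeR) was lost without shoot library 2 (0.374) and with DESeq2 (0.0953). Root exceeded shoot by more on sequence 10 plus strand at 41004323 to 41004331, with 1607 and 806 CPM against 240 and 161 CPM, a ratio of 6.01 and an adjusted p of 0.000221 by edgeR.

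One strong member rested on shoot libraries that were far apart. On sequence 10 minus strand at 2444748 to 2444756, the tags were 850 and 1078 in root, 142 in shoot library 1 and 3 in shoot library 2, or 894 and 1280 CPM against 207 and 6.27 CPM. The log2 difference was -3.29 ± 0.82 with an adjusted p of 0.00627 by edgeR and 0.118 by DESeq2. The fitted value was -2.34 without shoot library 2 and -7.42 without shoot library 1, where only 3 shoot tags remain and the fit depends on its prior count. All 3 tags of shoot library 2 lay on the main base that the other libraries used.

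The 2 strong members higher in shoot differed between their root libraries. On sequence 3 plus strand at 44151533 to 44151541, shoot had 592 and 1152 CPM and root 149 and 323 CPM, a ratio of 3.69 with an adjusted p of 0.00298 by edgeR. The log2 difference of 1.88 was 2.52 without root library 2, 1.41 without root library 1 and 1.38 without shoot library 2. On sequence 5 minus strand at 3879579 to 3879587, shoot had 1108 and 638 CPM and root 489 and 188 CPM, a ratio of 2.58 with an adjusted p of 0.0203. Its log2 difference of 1.37 was 2.21 without root library 1, 0.82 without root library 2 and 0.89 without shoot library 1. This call was lost without shoot library 1 (0.0855), by library totals (0.0788) and with DESeq2 (0.0507).

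The members furthest to the root side were taken by the largest fitted fold among called members with at least 50 CPM in root and no overlap between the tissues' libraries. The leading one, at 4540487 to 4540494 on sequence 10 (minus strand), had 320 and 488 tags in root and 21 and 1 in shoot (337 and 580 CPM against 30.6 and 2.09 CPM). Its log2 difference was -4.65 ± 0.59 with an adjusted p of 9.12e-05 by edgeR. It was -3.84 without shoot library 2 and -7.68 without shoot library 1, where 1 shoot tag remains and the value depends on the prior count of the fit. The next, on sequence 2 plus strand at 46646348 to 46646352, had 471 and 227 tags in root, 25 in shoot library 1 and 0 in shoot library 2, with a log2 difference of -4.22 ± 0.69 that was -3.34 without shoot library 2. Without shoot library 1 its shoot level is 0 tags, and its adjusted p was 0.000458 by edgeR and 0.123 by DESeq2. The third, on sequence 7 minus strand at 16524567 to 16524572, had 138 and 224 tags in root and 15 and 1 in shoot. Its log2 difference of -3.93 became -3.17 without shoot library 2 and -6.52 without shoot library 1, again on 1 shoot tag. All 3 owed most of their shoot level to library 1.

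In the other 5 root-sided members shoot library 2 held 9 to 52 tags. The member at 20147730 to 20147738 on sequence 5 (plus strand) had 2465 and 1479 CPM in root, the highest root level mean of any tested member, and 160 and 109 CPM in shoot, a ratio of 14.7 with an adjusted p of 1.43e-05 by edgeR. Its profile was the same in both tissues, with 79.6% of root and 80.9% of shoot tags on the main base and 18.5% and 19.1% on the base before it. At 30585264 to 30585266 on sequence 11 (minus strand) root and shoot had 600 and 931 CPM against 61.2 and 48.1 CPM, and the main base held 92.4% and 93.8%. At 453164 to 453171 on sequence 3 (plus strand) they were 240 and 267 CPM against 16.03 and 20.9 CPM, a ratio of 13.7. The last 2 of the rule, from 45641265 to 45641270 and from 37262243 to 37262251 on sequence 9 (minus strand), had ratios of 11.96 and 12.1. Their log2 differences of -3.58 and -3.52 were -2.97 without root library 1 for the former, and -4.93 without shoot library 1 and -2.86 without shoot library 2 for the latter.

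The balance of the shoot libraries among root-sided members was near that of all regions. Among the 93 members called and over 2-fold higher in root, shoot library 1 had a higher scaled level than shoot library 2 in 60. The median log2 ratio of shoot library 1 to shoot library 2 was 0.24 (on CPM + 1). Shoot library 1 was the higher in 1028 of all 1568 such regions, with a median of 0.39, and in 244 of 378 of the wider regions. The same ratio was 0.00 in the 437 members not called and -0.05 in the 113 over 2-fold higher in shoot. The part of this difference between the shoot libraries in the folds was not tested beyond leaving each library out.

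The members furthest to the shoot side, taken by the same rule, had ratios of 8.64 to 29.8. At the head stood 45021627 to 45021636 on sequence 2 (plus strand), with 279 and 177 tags in shoot and 18 and 6 in root (407 and 370 CPM against 18.9 and 7.13 CPM). Its ratio was 29.8 and its log2 difference 4.85 ± 0.38, with an adjusted p of 3.75e-06 by edgeR, and it was 5.72 without root library 1. Next came sequence 11 plus strand at 41588239 to 41588247, with 651 and 1050 CPM in shoot and 67.3 and 34.4 CPM in root, a ratio of 16.7. The third, on sequence 12 minus strand at 40162891 to 40162898, had 408 and 383 CPM against 34.7 and 22.6 CPM, a ratio of 13.8. As the rule required, both shoot libraries lay above both root libraries in every member it took.

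The other 5 had ratios of 8.64 to 10.8. They lay on sequence 11 plus strand at 4056275 to 4056281, sequence 6 plus strand at 8845840 to 8845844, sequence 3 minus strand at 47554573 to 47554575, sequence 2 minus strand at 4004203 to 4004204 and sequence 6 plus strand at 11257778 to 11257784. The last had 241 tags in shoot library 1 and 36 in shoot library 2 against 25 and 18 in root. Its log2 difference of 3.17 was 1.63 without shoot library 1 and 3.92 without shoot library 2. This last member also had the highest adjusted p among the 8, at 0.00123 (edgeR).

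Most members had the same main base in both tissues, whether or not they were called for level. The rule took only overlapping clusters of at most 10 bp, so larger moves could not occur among members. The wider regions were not split in this way. Among the 227 called members, 206 (90.7%) had the same main base in root and shoot, and among the 437 others 382 (87.4%). Restricted to at least 50 tags in the tissue with fewer, the numbers were 87 of 92 (94.6%) and 132 of 140 (94.3%). In these members the share at the main base differed between the tissues by a median of 3.70 percentage points in called members and 4.54 in the others. Of the 65 members called and over 4-fold apart, 60 had the same main base in both tissues.

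The 345 members outside the count table gave like values in pooled TPM, without replicates. By the authors' deposited lists the main base was the same in root and shoot in 318 of them (92.2%), against 88.2% of the covered members. Root was over 5-fold above shoot in 20 (5.80%) and shoot over root in 5 (1.45%), against 36 (5.37%) and 9 (1.34%) of the covered 670. In this scaling the median log2 ratio of shoot to root was -0.35 in the 345 and -0.41 in the 670. With trimmed-mean scaling the edgeR calls among covered members leaned the other way, 127 higher in shoot and 100 in root, so no direction is read from the TPM ratios. The rule held both scores to at least 5 TPM, and the shares are not given for all regions.

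The strongest of them by the lower of the 2 scores lay on sequence 20 plus strand at 41216435 to 41216439, with 434 TPM in root and 260 TPM in shoot and 82.5% and 83.4% on the same base. On sequence 17 minus strand at 41950778 to 41950783 the scores were 337 and 203 TPM, with 83.8% and 83.1% on the main base. At both, the share at the main base differed by less than 1 percentage point between the tissues. The next 3 were on sequence 15 minus strand at 11602288 to 11602295 (131 TPM in root and 188 TPM in shoot), sequence 19 plus strand at 50406910 to 50406917 (574 and 125 TPM) and sequence 18 plus strand at 1102656 to 1102665 (157 and 120 TPM). The highest score of all members, chosen after its value was seen, was 1401 TPM in shoot on sequence 13 minus strand at 43758380 to 43758388, 22.99 times the 60.9 TPM of its root cluster. Its main base held 87.3% in root and 87.6% in shoot. In the other direction, the root score at 44205164 to 44205171 on sequence 19 (minus strand) was 296 TPM and the shoot score 10.7 TPM, with 85.3% and 87.7% on the same base.

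The share of members with a close neighbour was slightly below that of the wider regions and below that of all start regions, members included. The nearest region on the same strand lay within 500 bp in 8.18% of members, 9.22% of the wider regions and 11.7% of all 23330 regions. A region on the opposite strand began within 1 kb upstream in 1.18%, 1.53% and 1.67%. These shares are descriptions without a test.

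A few members stood next to each other. On sequence 5 plus strand, 3 members lay within 1 kb, starting at 37152985, 37153450 and 37153820 (chosen after their values were seen). The first had 87 and 87 tags in root and 10 and 18 in shoot, the second 122 and 93 against 45 and 41, and the third 19 and 17 against 13 and 13. Only the first of the 3 passed the test of level, at a ratio of 3.73 and an adjusted p of 0.00232 by edgeR, and the others had 0.0734 and 0.768. The differences among the 3 were not tested, and reads shared by similar copies side by side would blur them.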

How the data were processed

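Per the file headers, the deposited count table gives raw tag counts of single bases in the 4 libraries. It covered sequences 1 to 12 and part of 13, and 1 broken line at its end was left out. The deposited TPM table and the TPM scores of the cluster lists are values of pooled replicates of a tissue, per the file headers. The lists' other columns give the number of start positions and the width. The sources used here name neither aligner nor cluster caller, nor how reads with several hits were treated.

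Tags were summed over the 23330 regions and tested with edgeR 4.0.16 (quasi-likelihood test, trimmed mean of M values, filterByExpr, tissue as the only term) and, as an alternative, DESeq2 1.42.0, in R 4.3.3. P-values were Benjamini-Hochberg adjusted over all regions tested. Use of positions was tested with diffSpliceDGE on positions with at least 20 tags over the 4 libraries and 5% of the region's tags. Ties for the main position went to the base nearest the 5′ end. SE of log2 differences were derived from the F statistic. Both tests were tested on simulated data, with 1 spread between libraries set for all regions. For the level test, 67 regions were changed 2-fold, 67 changed 4-fold and 66 changed 8-fold, with 6655 regions entering it. It recovered 7.46% of the 2-fold, 76.1% of the 4-fold and 98.5% of the 8-fold changes. In the data 52.9% of regions were called, so these shares need not hold there.

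Members, lists and tests were chosen with earlier results of these data known. Named members were taken by level, by fitted fold in each direction, by a differing main position and, outside the count table, by the lower score. The rule for members called for position use named none.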

Additional observations from a re-analysis of the deposited data

How the results depend on the processing

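The number of members fell from 1015 to 544 with a score of at least 10 TPM. It was 467 with a width of at most 5 bp and 628 with at least 3 positions. The members called for level fell with the number of members, to 135 (49 higher in root) of 360 tested at 10 TPM. At 5 bp they were 98 (35 in root, 63 in shoot) of 316 tested. The same test called 52.9% of all 7183 regions. DESeq2 called 149 in place of 227, with 78 higher in shoot, and library totals turned the split to 161 in root and 84 in shoot. The causes of these shifts were not tested. With the replicate block 202 members were called for level, beside 3467 of all 7183 regions. For position use it called 0 members and 47 of 3308 regions. The block pairs libraries that share only a number, and the deviations of the same-numbered libraries correlated at -0.05. Leaving out 1 library leaves a single library in a tissue, so no count of calls is given for those fits. Position use stayed at 0 calls among members in each setting tried with all 4 libraries. With 10 or more tags and no share limit 580 members were tested, and 37 of 5646 regions were called. With positions of 10% or more of the region's tags, 12 of 2955 regions were called. Calls were thus rare over all regions too, and nothing is read from the 0 in members.

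The share of members with the same main position rose from 88.2% to 94.4% with at least 50 tags per tissue and to 91.4% at 10 TPM, and it was 86.6% to 88.2% with 1 library left out. The median share at the main position moved from 70.0% in root and 71.4% in shoot to 71.6% and 74.5% at 50 tags, to 71.2% and 73.03% at 10 TPM and to 76.6% and 77.8% at 5 bp. It was 63.0% and 63.6% of all tags within 100 bp, and 70.7% in root in the TPM table. With 1 library left out it was 70.0% to 70.8% in root and 71.9% to 72.7% in shoot. Of 250 values for 25 named members under alternatives, 241 kept the direction and the side of the threshold, 7 kept only the direction, and 2, both under library totals and without a call in either setting, turned in sign: the log2 difference of the sequence 12 member at 3132389 went from 0.32 to -0.070 and that of the sequence 11 member at 15175021 from 0.26 to -0.13. Depth limits the positions: members with 10 to 49 tags in the tissue with fewer had the same main base in 84.9%.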
